A study of Mus musculus with 11 samples.

Results

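The genes described here are 9 complement genes: the chains of the C1q recognition molecule (C1qa, C1qb and C1qc), the components C3 and C4b, the receptor genes C3ar1, C5ar1 and Itgam, and the inhibitor Serping1. They were taken by name from the 53700 gene identifiers in the count tables, and all 9 are among the 17626 genes tested. RNA came from cerebral cortex of female mice aged 8 months, strain C57BL/6 in the labels, and was read by 3′ mRNA sequencing (QuantSeq), which primes on the poly(A) tail and gives reads close to the 3′ end of a transcript. Animals of both groups carried the 5xFAD transgenes, human genes with mutations of familial Alzheimer's disease driven in neurons by the Thy1 promoter, and no mice without these transgenes are compared here. The control group was 5xFAD; Abi3 WT (Abi3_WT, n = 6) and the other group 5xFAD; Abi3 KO (Abi3_KO, n = 5). The deletion of Abi3, an adaptor gene of the Abl interactor family that is enriched in microglia, was constitutive and not limited to a cell type. The study's methods place the origin of the 5xFAD line on a mixed B6SJL background and that of the deletion on C57BL/6N, and neither litters nor batches are given in the labels. The question put by the comparison is whether the loss of Abi3 was accompanied by other levels of complement mRNA in cortex with amyloid.

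Complement is a cascade of plasma and tissue proteins that marks targets for removal. C1q binds a target and starts the classical pathway, C4 and C3 are then cut and deposited, and the fragments C3a and C5a signal through their receptors. In the brain C1q comes mainly from microglia, C4b from glia including astrocytes and oligodendrocytes, and the complement receptor CR3, of which Itgam is a chain, lets microglia take up tagged synapses and debris.

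The sequences bear on what the reads could tell apart and on what neighbouring members share upstream of their starts. C4b has a near-identical neighbour, C4a, which lies 65156 bases away on the same strand of chromosome 17 (GRCm39). Over the last 500 bases of the C4b transcript the pair matched at 98.0% identity with 10 mismatches, and 26.1% of the 76-base windows, the length of 1 read, held no difference. The 76 coding bases below, at positions 5100 to 5175 of the C4b transcript, lie in chr17:34947811-34948170 for C4b and chr17:35028525-35028884 for C4a, both on the minus strand and spanning more than 1 exon. Bases that differ between the genes are in capitals, 2 in each line.
C4b: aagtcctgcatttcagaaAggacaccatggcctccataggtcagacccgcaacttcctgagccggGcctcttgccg
C4a: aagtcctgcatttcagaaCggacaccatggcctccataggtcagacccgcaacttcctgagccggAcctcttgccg

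Only reads aligned to 1 place were counted, so a C4b read from a window without a difference could have been dropped. C4a itself had 16 counts over all 11 animals, against 1806 for C4b. Among the 3′ ends of the other members none had a match over more than 108 bases in another gene. Itgam shares 67.4% of its exon bases with the same-strand annotated gene Gm49368, but none of the last 500 bases of its last exon.

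C1qb, C1qc and C1qa stand side by side on the minus strand of chromosome 4, at chr4:136606009-136613511, chr4:136616466-136620376 and chr4:136623223-136626161 (GRCm39), within 20153 bases. The windows of 250 bases before the annotated start were read from RefSeq (GRCm38.p6), which matched 6 of the 9 members. C1qa, C4b and Serping1 were not among the entries. GAGGAA, the core of sites bound by the myeloid factor PU.1, was searched on both strands and was found in 3 of the 6 windows, against 23.3% of 32851 windows in the table. It stood at -30 of C1qb, at -193 of C1qc and at -84 and -15 of Itgam, counted from the start, and those 3 windows are shown because they hold the match. Capitals mark the match, which reads TTCCTC where it lies on the opposite strand. The windows are chr4:136886201-136886450 (minus strand), chr4:136892915-136893164 (minus strand) and chr7:128062390-128062639 (plus strand).
C1qb: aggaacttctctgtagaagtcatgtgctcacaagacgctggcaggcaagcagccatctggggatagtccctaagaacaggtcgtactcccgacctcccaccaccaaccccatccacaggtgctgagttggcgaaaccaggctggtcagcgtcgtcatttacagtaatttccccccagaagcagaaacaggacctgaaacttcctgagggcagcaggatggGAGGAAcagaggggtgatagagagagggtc
C1qc: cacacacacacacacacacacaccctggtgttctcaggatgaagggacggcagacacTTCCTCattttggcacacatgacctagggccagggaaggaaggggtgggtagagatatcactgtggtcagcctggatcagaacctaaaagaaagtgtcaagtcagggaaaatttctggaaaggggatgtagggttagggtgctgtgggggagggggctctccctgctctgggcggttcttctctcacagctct
Itgam: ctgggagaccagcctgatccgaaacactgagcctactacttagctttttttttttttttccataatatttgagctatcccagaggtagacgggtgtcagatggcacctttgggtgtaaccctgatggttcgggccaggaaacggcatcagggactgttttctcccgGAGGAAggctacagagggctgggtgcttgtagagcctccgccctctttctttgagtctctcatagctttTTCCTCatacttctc

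Of the other motifs searched on both strands, TGACTCA (AP-1) was in the window of C3ar1 at -22 and in 4.46% of all windows. TTCNNNGAA (STAT, 7.02% of windows), TTGCGCAA (C/EBP, 0.164%) and the NF-kB consensus (0.14%) were in none of the 6. A match is a description of the letters and not of binding.

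The libraries held 3202310 to 5501958 reads in genes. Abi3 had 10 to 38 reads in each Abi3_WT library and 0 to 2 in each Abi3_KO library, as the labels have it. Markers of neurons, astrocytes, oligodendrocytes and microglia were present in every library, and 3 libraries (Abi3_WT replicate 4 and Abi3_KO replicates 1 and 5) stood apart with choroid plexus markers summing to over 1000 normalized counts. Per 100 reads in genes, 59.29 to 68.79 reads lay outside genes in Abi3_WT and 49.8 to 62.51 in Abi3_KO (exact permutation test, two-sided, p = 0.00866). With that measure as a covariate beside genotype the log2 fold change was 0.90 for C1qa and 0.92 for C4b (DESeq2 adjusted p = 0.537 and 1), against 0.47 and 0.59 without it.

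None of the 9 members passed an adjusted p of 0.05 in DESeq2, and 0.539% of all genes tested did (0.34% higher and 0.199% lower in Abi3_KO). DESeq2 gave an adjusted p to 4 of the 9 (the C1q chains and C4b), of which the lowest were 0.0748 for C4b and 0.0783 for C1qa. The other 5 had too low a mean count to be given one. Without independent filtering, the step by which DESeq2 gives no adjusted p to genes of low mean count, the count was also 0 beside 0.323% of all genes, as it was for the 7 members tested in edgeR beside 0.193% and in limma beside 0.132%. Unadjusted p-values under 0.05 came to 2 of 9 in DESeq2, both higher in Abi3_KO, beside 8.58% of all genes (4.14% higher), to 2 of 7 in edgeR, beside 9.71%, and to 3 of 7 in limma, beside 9.6%. All 9 fitted log2 fold changes (Abi3_KO against Abi3_WT) were above 0, with a median of 0.37, while 49.5% of all genes tested were above 0 and their median was -0.0033. The members are not independent of each other, no test was made of that count, and C3 did not keep its sign in every alternative fit. Without the 3 libraries high in choroid plexus markers only C1qa and C1qc were given an adjusted p. With independent filtering off in that fit the count past the threshold was 0, with an adjusted p of 0.634 for C4b and 0.729 for C1qa, and all 9 fold changes were above 0. For no member did the genotypes separate completely, which 1.04% of all genes did.

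**Figure D1:**
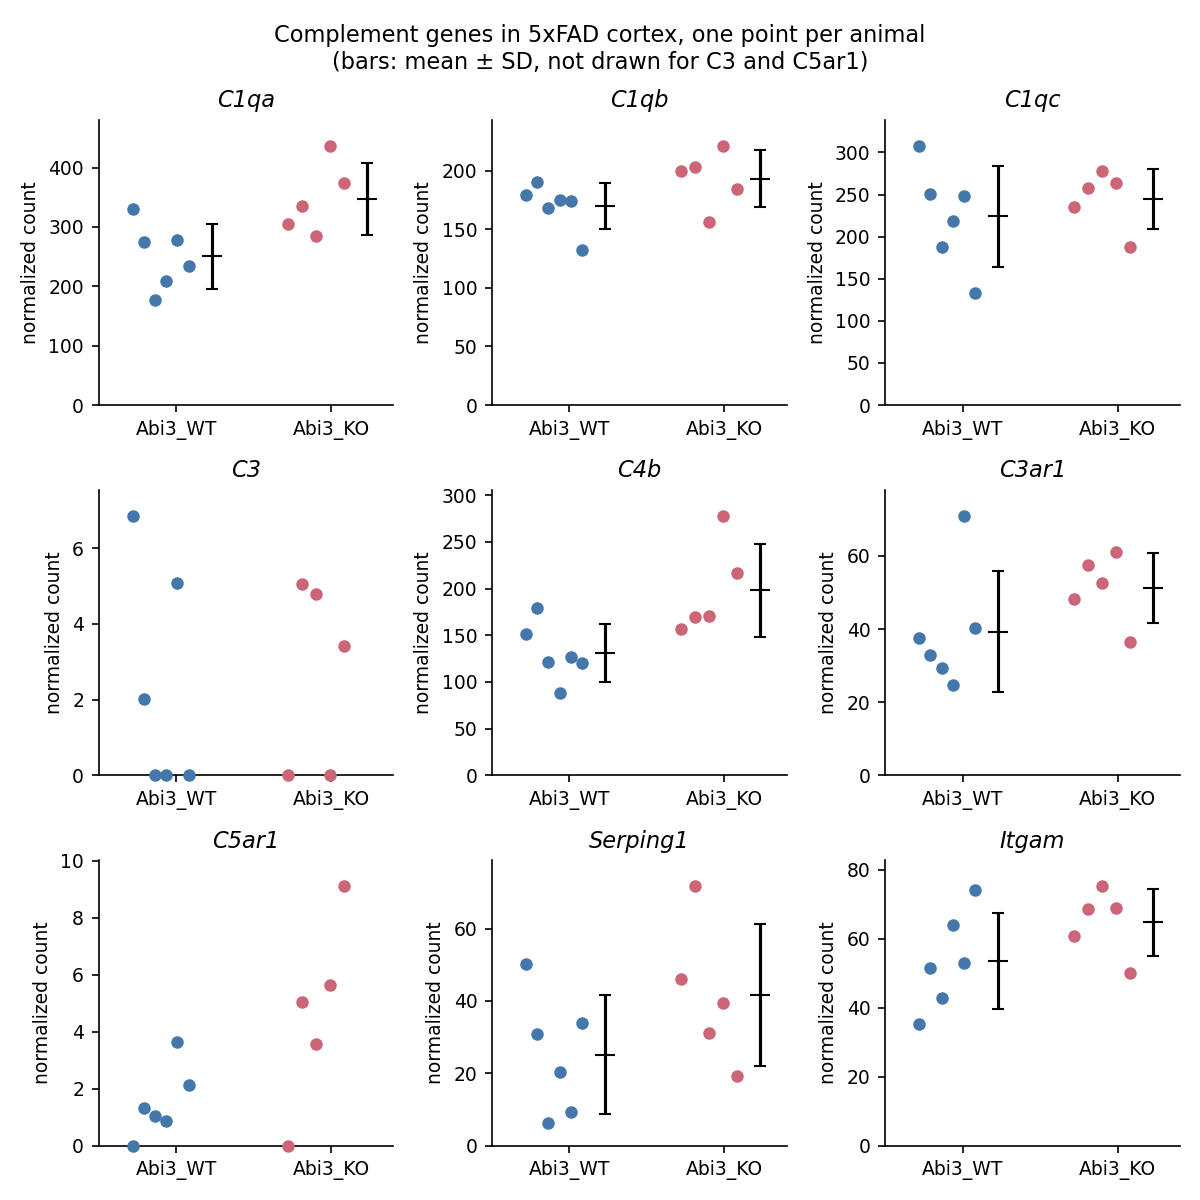
Normalized count of each of the 9 members (y axis, from 0) in 6 Abi3_WT (blue) and 5 Abi3_KO (red) animals, 1 point per animal, with the mean ± SD beside the points except for C3 and C5ar1. In C1qa and C4b 5 of the 6 Abi3_WT animals lie below the lowest Abi3_KO animal, and in every panel the groups overlap.

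C1q is built from the products of C1qa, C1qb and C1qc. Normalized counts of C1qa, that is counts divided by DESeq2's size factor of the library, were 177.8 at the lowest, 254.6 at the median and 329.9 at the highest in Abi3_WT. In Abi3_KO they were 305.2, 335.3, 285.3, 437.1 and 373.3. All 5 Abi3_KO animals were above the Abi3_WT mean, 3 were above the highest Abi3_WT animal, and 5 Abi3_WT animals were below the lowest Abi3_KO animal. The means were 250.6 ± 54.4 (SD, n = 6) and 347.2 ± 60.2 (SD, n = 5), a fitted fold of 1.39 (95% interval 1.14 to 1.69) or a log2 fold change of 0.47 with SE 0.147. This did not pass the threshold (DESeq2 adjusted p = 0.0783, from an unadjusted p of 0.00135). Without independent filtering the adjusted p was 0.179. The adjusted p was 0.167 in edgeR and 0.148 in limma. Single animals decided the call: the adjusted p was 0.0163 without Abi3_WT replicate 1 and 0.0434 without Abi3_KO replicate 3. With independent filtering off these were 0.0489 and 0.103.

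C1qb was 132.2 at the lowest, 174.2 at the median and 190.0 at the highest in Abi3_WT, and 199.3, 203, 156.4, 221.4 and 184.4 in the Abi3_KO animals. The Abi3_WT range lay largely inside 168.4 to 190.0, with replicate 6 below it, and 3 Abi3_KO animals were above it. The log2 fold change was 0.18 with SE 0.132 (95% interval -0.08 to 0.44, adjusted p = 0.609). C1qc was 133.3 at the lowest, 232.9 at the median and 308.2 at the highest in Abi3_WT. In Abi3_KO it was 234.9, 257.6, 278.1, 264.3 and 187.8. No Abi3_KO animal exceeded the highest Abi3_WT animal, and the log2 fold change was 0.12 with SE 0.166 (95% interval -0.20 to 0.45, adjusted p = 0.827). It was 0.013 without Abi3_WT replicate 6 and 0.23 without Abi3_WT replicate 1.

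The chains were then set against each other within each animal, which takes out the size of the library. A share of reads is not a share of molecules, since it also depends on how each 3′ end was primed and aligned, and only shares of the same chain are compared. C1qa took 33.27% (95% Wilson interval 29.32 to 37.46, which covers counting error only) to 46.93% (42.48 to 51.44) of the C1q reads in Abi3_WT. In Abi3_KO it took 39.64% (35.81 to 43.59) to 50.08% (46.26 to 53.89). The ratio of C1qa to C1qc counts had a median of 1.08 in Abi3_WT (range 0.944 to 1.76) and 1.30 in Abi3_KO (1.03 to 1.99). The difference in mean log2 ratio was 0.32 (exact permutation test over all splits, two-sided, p = 0.147, adjusted over 3 ratios p = 0.221). It was 0.30 for C1qa to C1qb (exact p = 0.0996, adjusted p = 0.221) and 0.03 for C1qb to C1qc (exact p = 0.875). None of the 3 ratios passed the threshold. These ratios were added after the chains' values had been seen.

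**Figure D2:**
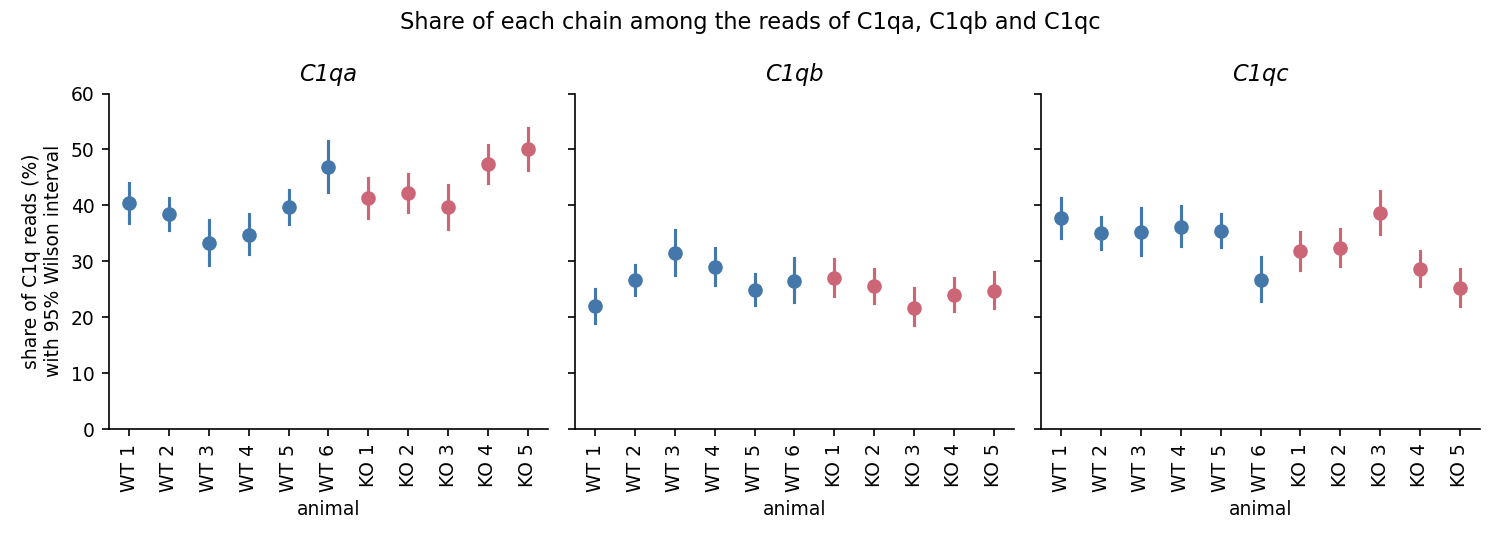
Share of C1qa, C1qb and C1qc in the reads of the 3 genes (y axis, percent) in each animal (x axis), Abi3_WT in blue and Abi3_KO in red, with 95% Wilson intervals for counting error. The C1qa share reaches 50.08% in Abi3_KO replicate 5 and 46.93% in Abi3_WT replicate 6, and the groups overlap for every chain.

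C4b, whose product C1 cleaves next, had the lowest p of the 9 members in DESeq2 and edgeR, and C1qa in limma. It was 88.6 at the lowest, 124.0 at the median and 179.3 at the highest in Abi3_WT, and 156.3, 169.7, 170.7, 277.8 and 216.2 in the Abi3_KO animals. All 5 Abi3_KO animals were above the Abi3_WT mean, 2 were above every Abi3_WT animal, and 5 Abi3_WT animals were below the lowest Abi3_KO animal. The means were 131.4 ± 30.9 (SD, n = 6) and 198.1 ± 50.0 (SD, n = 5), a fitted fold of 1.51 (95% interval 1.17 to 1.93) and a log2 fold change of 0.59 with SE 0.183. C4b also missed the threshold (DESeq2 adjusted p = 0.0748, from an unadjusted p of 0.00125). Its adjusted p was 0.171 without independent filtering, 0.165 in edgeR and 0.156 in limma. Single animals decided this call too. Leaving out Abi3_KO replicate 1 took the adjusted p to 0.0493, or 0.124 without independent filtering. Without Abi3_WT replicate 2 independent filtering left C4b without an adjusted p, and with filtering off it was 0.0473 at a log2 fold change of 0.70.

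C3, the component on which all pathways meet, was close to the limit of detection. Its reads numbered 0 to 7 in Abi3_WT and 0, 5, 4, 0 and 3 in Abi3_KO, 28 in all, and 5 of the 11 animals had none. A count of 3, taken as the smallest that can be told from none, equals 2.01 to 3.58 normalized counts here, and 7 animals had 3 reads or fewer. The 95% interval of the log2 fold change ran from -2.31 to 2.69, so a difference in C3 was not detectable at this depth.

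**Figure D3:**
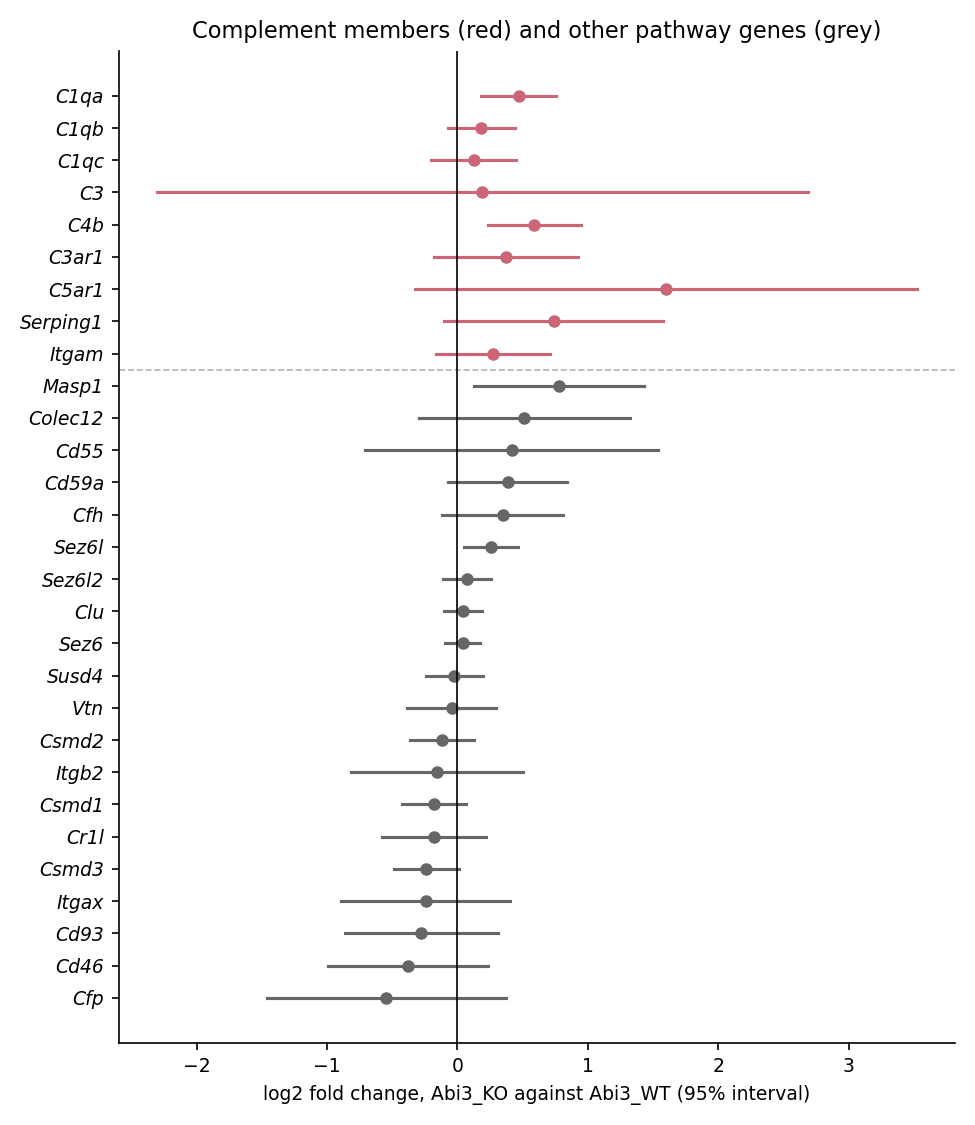
Log2 fold change of Abi3_KO against Abi3_WT (x axis) with its 95% interval for the 9 members (red) and the 20 other pathway genes averaging 10 normalized counts or more (grey, sorted). The intervals of C1qa (0.18 to 0.76) and C4b (0.23 to 0.95) lie above 0, and those of C3 and C5ar1 are the widest among the members.

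The anaphylatoxin receptors bind C3a and C5a. C3ar1 was 24.71 at the lowest, 35.23 at the median and 70.98 at the highest in Abi3_WT, and 48.24, 57.57, 52.52, 60.99 and 36.42 in Abi3_KO. The highest value of all was an Abi3_WT animal, and the log2 fold change of 0.37 with SE 0.282 had an unadjusted p of 0.185 (DESeq2). Without that animal, Abi3_WT replicate 5, it was 0.64 (DESeq2 unadjusted p = 0.0137, adjusted p = 0.325). C5ar1 had 0 to 5 reads in Abi3_WT and 0, 5, 3, 5 and 8 in Abi3_KO. With 7 animals at 3 reads or fewer its log2 fold change of 1.60 had a 95% interval of -0.33 to 3.52 (DESeq2 unadjusted p = 0.104), and a difference was not detectable at this depth.

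Itgam encodes the alpha chain of CR3. It was 35.38 at the lowest, 52.2 at the median and 74.06 at the highest in Abi3_WT, and 60.83, 68.68, 75.2, 68.89 and 50.07 in Abi3_KO. The groups overlapped over most of their range, and the log2 fold change was 0.27 with SE 0.223 (95% interval -0.16 to 0.71, DESeq2 unadjusted p = 0.22). Its partner Itgb2, the beta chain, was 27.0 ± 8.95 (SD, n = 6) against 24.4 ± 7.96 (SD, n = 5), a log2 fold change of -0.16. Itgax, the alpha chain of the related receptor CR4, was 31.6 ± 11.1 against 26.8 ± 8.88, a log2 fold change of -0.24. Both fold changes turned above 0 when the 3 libraries high in choroid plexus markers were left out, and with the reads outside genes as a covariate.

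Serping1 encodes the C1 inhibitor, which stops the proteases bound to C1q. It was 6.28 at the lowest, 25.6 at the median and 50.2 at the highest in Abi3_WT, and 46.14, 71.71, 31.04, 39.53 and 19.35 in Abi3_KO. The highest animal was 11.4 times the lowest, the widest spread among the 7 members with a mean of at least 10 normalized counts. The log2 fold change was 0.74 with SE 0.427 (95% interval -0.10 to 1.57, DESeq2 unadjusted p = 0.0845), and limma gave an unadjusted p of 0.0295 with an adjusted p of 0.46. It depended on single animals, from 0.45 without Abi3_KO replicate 2 (DESeq2 unadjusted p = 0.328) to 1.05 without Abi3_WT replicate 1 (0.0147). With the reads outside genes as a covariate it was 1.66.

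The rest of the pathway was read from a list of 52 genes, of which 11 had no read in any animal and 26 were tested. None passed the threshold in DESeq2, with or without independent filtering, in edgeR or in limma. In DESeq2 12 of the 26 were given an adjusted p. Unadjusted p-values under 0.05 came to 3 of 26 in DESeq2, all higher in Abi3_KO, beside the 8.58% of all genes (4.14% higher). They came to 3 of 20 in edgeR, beside 9.71%, of which 1 was lower in Abi3_KO, and to 2 in limma, beside 9.6%. The fitted log2 fold changes were above 0 for 14 and below 0 for 12, with a median of 0.04. Of 9 lectin pathway genes, 4 had no read and 2 were tested. Masp1, a protease of that pathway, was 20.6 ± 8.44 (SD, n = 6) against 35.2 ± 8.99 (SD, n = 5), a log2 fold change of 0.78 with SE 0.333, and DESeq2 gave it an unadjusted p of 0.0192 and an adjusted p of 0.485 without independent filtering. Of 21 regulators 15 were tested, 8 with a fold change above 0 and 7 below. Among them Sez6l, a neuronal gene of the Sez6 family that limits complement, was 269.3 ± 31.5 against 321.0 ± 22.8, a log2 fold change of 0.26 with SE 0.107 (DESeq2 adjusted p = 0.266). None of the 7 terminal pathway genes had enough counts to be tested, and Hc, which encodes C5, had 4 reads, all in 1 Abi3_WT animal. C5ar2, the second C5a receptor, had 38 reads in all and a log2 fold change of 0.35 with SE 1.29.

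Cortex is a mixture, and fewer cells of a type and less RNA per cell cannot be told apart in it. Of 15 microglia markers, none of them a member, 14 were found and none passed the threshold. Aif1, P2ry13, Tmem119, Sall1 and Ptprc were given no adjusted p, so they could not pass. Of the 14, the fitted fold change was above 0 for 8 and below 0 for 6, with a median log2 fold change of 0.07. Unadjusted p-values under 0.05 came to 2 of the 14, both higher in Abi3_KO: Fcer1g at a log2 fold change of 0.53 (DESeq2 unadjusted p = 0.00694, adjusted p = 0.173) and Tyrobp at 0.30 (unadjusted p = 0.0499, adjusted p = 0.422), which encode signalling adaptors of microglial receptors. None of the 14 was at 0 in all animals. Their sum was 2063 to 2890 normalized counts in Abi3_WT and 2161 to 3144 in Abi3_KO. Per animal, the log2 level of C1qa above the mean log2 level of these markers was 1.14 ± 0.178 across the Abi3_WT animals (SD, n = 6) and 1.51 ± 0.174 across the Abi3_KO animals (SD, n = 5), a difference of 0.36. For C4b it was 0.21 ± 0.195 and 0.68 ± 0.221, a difference of 0.47. The differences for C1qb and C1qc were 0.07 and 0.04, for C3ar1 0.32, for Itgam 0.18 and for Serping1 0.76. Set against the median of the markers, the difference was 0.29 for C1qa and 0.40 for C4b. By that measure it was -0.006 for C1qb, -0.031 for C1qc, 0.25 for C3ar1, 0.11 for Itgam and 0.69 for Serping1. With the marker level as a covariate beside genotype, the log2 fold change was 0.33 for C1qa and 0.39 for C4b (DESeq2 adjusted p = 0.118 and 0.136). The 8 border macrophage markers summed to 36.6 to 75.6 in Abi3_WT and 57.6 to 85.4 in Abi3_KO. The 9 markers of blood neutrophils and monocytes, 2 of them at 0 in all animals, summed to 1.05 to 6.85 and 0 to 17.2. Of the 9 astrocyte markers 7 had a fold change below 0 and 2 above, with a median of -0.11 and 1 unadjusted p under 0.05, and their sum was 14750 to 17510 in Abi3_WT and 15310 to 16900 in Abi3_KO. All 5 oligodendrocyte markers had a fold change above 0, with a median of 0.12 and no unadjusted p under 0.05, and their sum was 7249 to 9988 and 7943 to 10920. No marker of these lists passed the threshold. No border macrophage or blood marker was given an adjusted p, nor was the astrocyte marker Aldh1l1, so these could not pass. The part of these cells in the members' values was not tested.

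**Figure D4:**
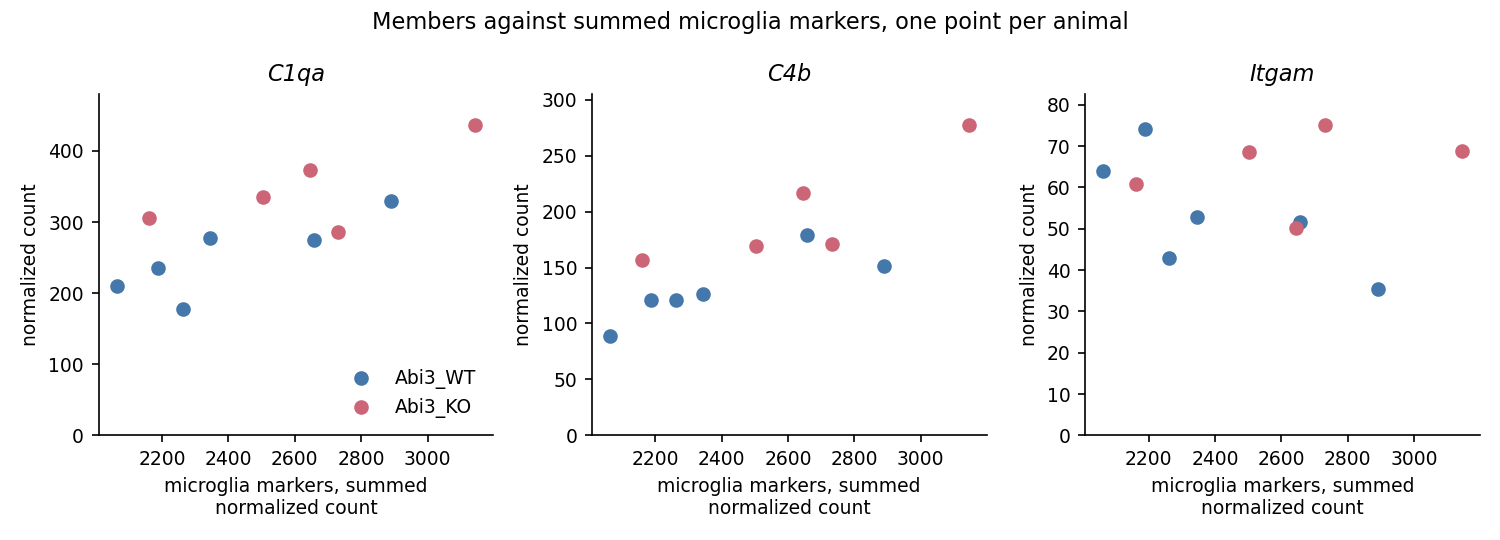
Normalized count (y axis, from 0) of C1qa, C4b and Itgam against the summed normalized count of 14 microglia markers (x axis), 1 point per animal, Abi3_WT in blue and Abi3_KO in red. C4b is highest (277.8) in the animal with the highest marker sum (3144), while Itgam has 35.38, its lowest value, in an Abi3_WT animal with a marker sum of 2890.

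How far the members went together from animal to animal was measured after subtracting each genotype's mean, over the 7 members averaging 30 normalized counts or more and all 11 animals. Of the 21 pairs, 17 had r above 0 and 4 below 0, with a median of 0.20. The 4 below 0 all involved Itgam, paired with C1qa, C1qb, C1qc or C4b. Of these, C1qc with Itgam had r = -0.72 within Abi3_WT alone but 0.99 within Abi3_KO alone, and the rest were below 0 within both genotypes. No pair passed the threshold after adjustment over the 21 (exact permutation of animals within genotypes, two-sided). The highest was C1qa with C4b, with r = 0.73 (exact permutation p = 0.0175, adjusted p = 0.368) and rho = 0.73 (exact permutation p = 0.0167, adjusted p = 0.351). Without the 2 animals farthest from the median of C1qa, r was 0.78. C1qb with C1qc had r = 0.57 (exact permutation p = 0.076, adjusted p = 0.71) and rho = 0.57 (exact permutation p = 0.0737, adjusted p = 0.516). Without the 2 animals farthest from the median of C1qb, which also narrows its range, r was -0.001. It was 0.89 within Abi3_WT alone and -0.04 within Abi3_KO alone.

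**Figure D5:**
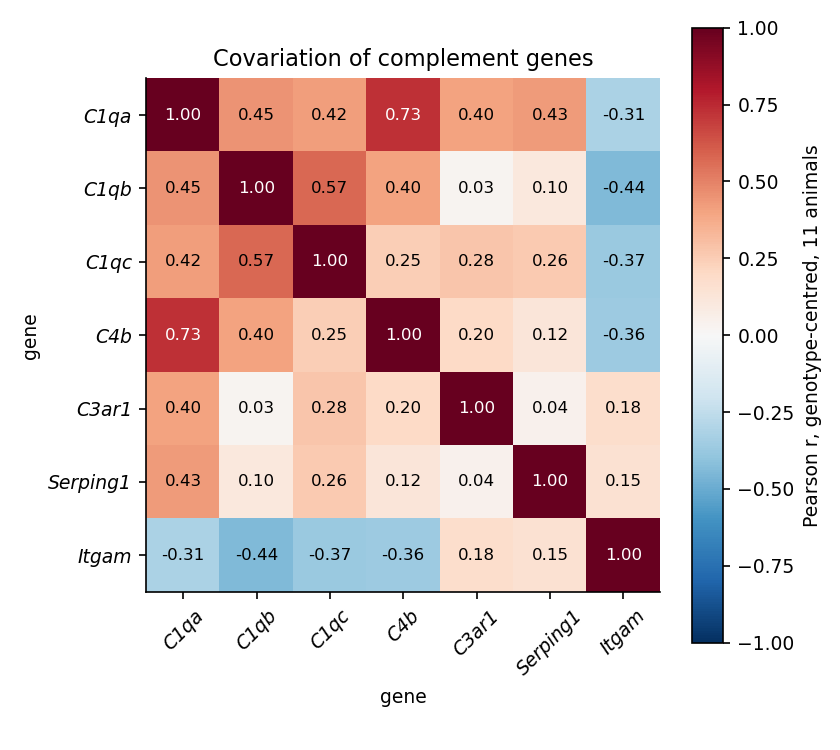
Pearson r between pairs of the 7 members with a mean of at least 30 normalized counts, over 11 animals after subtraction of genotype means (colour from -1 to 1, value in each cell). The C1qa and C4b cell (0.73) is the highest, and the Itgam row holds the 4 values below 0.

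Set against the summed markers of 10 cell types in the same way (70 relations, chosen after the data had been seen), 1 relation passed by r. C3ar1 went with the summed endothelial markers at r = 0.87 (exact permutation p = 0.00044, adjusted p = 0.0308) and rho = 0.83 (exact permutation p = 0.00319, adjusted p = 0.0559), and r was 0.85 without the 2 farthest animals. Flt1 made up the largest part of that sum, with a mean of 372.5 normalized counts against 27.45 to 163.4 for the other markers. In Abi3_WT replicate 5, the animal highest in C3ar1, Flt1 was also at its highest (496.9). There Cldn5 and Slco1a4 were above their means, and Pecam1 and Ly6c1 below. Relations with single markers were not tested. C4b went with microglia markers at r = 0.86 (exact permutation p = 0.00179, adjusted p = 0.0628) and rho = 0.83 (exact permutation p = 0.00267, adjusted p = 0.0559), with r = 0.74 without the 2 farthest animals. Serping1 had rho = 0.84 with the markers of blood neutrophils and monocytes (exact permutation p = 0.000984, adjusted p = 0.0344) and r = 0.65 (exact permutation p = 0.00979, adjusted p = 0.229), on marker sums of 0 to 17.2 normalized counts. Its r without the 2 farthest animals was 0.80. The marker sum was 17.2 in Abi3_KO replicate 2 and 6.85 or less in every other animal. Most sums thus lay near the floor of 3 counts, and their ranks turn on a few reads. C3ar1 had rho = -0.90 with choroid plexus markers (exact permutation p = 0.000532, adjusted p = 0.0344) but r = -0.71 (exact permutation p = 0.0319, adjusted p = 0.447), and r = -0.45 without the 2 farthest animals.

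The genes whose levels followed the sum of the C1q chains most closely were sought among 7775 genes with a mean of at least 50 normalized counts, by r over the 11 animals after subtraction of genotype means. This is a description, with no test. Epn1 came first at r = 0.91, followed by Zfp407 (r = 0.85), Umad1 (r = 0.85), Nopchap1 (r = 0.84), Trim56 (r = 0.84), Zcchc7 (r = 0.81), Ccnd3 (r = 0.81), F730043M19Rik (r = 0.80), Aamdc (r = 0.80) and Gm43751 (r = 0.80). Of these, Epn1 stayed among the top 10 whichever of the 11 animals was left out, and the other 9 did so in 2 to 7 of the 11 cases. By the same measure C4b had r = 0.60 with 192 above it, and Itgam had r = -0.46.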

How the data were processed

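QuantSeq 3′ mRNA libraries of cortex from 6 Abi3_WT and 5 Abi3_KO female 5xFAD mice were analysed. Single-end reads were cleared by the authors of adapter, poly(A) and poly(T) sequence, aligned with STAR (version 2.7.3a per the submitters' processing notes) to GRCm39, and counted per Ensembl gene with HTSeq (version 0.9.1), by strand and for uniquely aligned reads. Each deposited table holds raw counts, not normalized. No collapsing of PCR copies is stated, so reads were counted and not molecules. The Wilson intervals of the C1q shares and the floor of 3 counts cover counting error only. The intervals of the fitted fold changes also take in the spread between animals. Of 53700 identifiers, 52610 matched the annotation from which names were taken (GENCODE, same build). Pairs of libraries differed by more than sampling noise, so none was counted as a duplicate. The labels name no cultures or litters, and p-values measure the spread between these animals.

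Following the study's methods, DESeq2 (version 1.42.0, in R version 4.3.3) was fitted to the counts with 1 term, genotype. A gene needed 10 counts in total to be fitted and a mean of 1.5 normalized counts to be reported. Adjustment was by Benjamini-Hochberg over all genes with a threshold of 0.05, and independent filtering was aimed at 0.05 (genes under a mean of 70.4 got no adjusted p). The study's methods do not give that target, so 0.1 was an alternative. Others were edgeR (version 4.0.16, quasi-likelihood), limma (version 3.58.1, voom with quality weights), TMM factors, other count filters, covariates, the replicate block and leaving out animals. Correlations used log2(normalized count + 1) centred by genotype, with exact permutation within genotypes (scipy version 1.17.1). The 3′ ends were compared with BLAST (version 2.17.0). Scripts were tested on simulated data. The named genes are the members, Abi3, pathway genes with an unadjusted p under 0.05 and a mean of at least 10, the relatives C4a, Itgb2, Itgax, C5ar2 and Hc, and the 10 genes most like C1q. The members, lists and tests were chosen with earlier results of these data known.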

Additional observations from a re-analysis of the deposited data

Results flagged for a closer look

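In 3 of 26 groups of values 1 animal stood far from the others by Dixon's criterion, where chance alone gives about 1.3. C1qb in Abi3_WT replicate 6 was 132.2 normalized counts, with 168.4 the nearest of the other Abi3_WT animals, a gap of 0.626 of the group's range. C3ar1 in Abi3_WT replicate 5 was 70.98 normalized counts, with 40.2 the nearest, a gap of 0.665 of the range. Without that animal the log2 fold change of C3ar1 was 0.64 in place of 0.37 (DESeq2 unadjusted p = 0.0137, adjusted p = 0.325). The ratio of C1qa to C1qc counts in Abi3_WT replicate 6 was 1.762, with 1.12 the nearest, a gap of 0.785 of the range. Without that animal the difference in the mean log2 ratio was 0.45 (exact permutation p = 0.0317, two-sided, not adjusted). Over all choices of 1 animal left out the difference ranged from 0.20 to 0.45 (exact permutation p = 0.0317 to 0.324). Only 1 of these p-values was under 0.05.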

How the results depend on the processing

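Genes past the threshold over all genes, 95 as reported, came to 25 in edgeR, 17 in limma, 57 without independent filtering, 33 with the replicate block, 3 with reads outside genes as a covariate, 27 without the 3 libraries high in choroid plexus markers (an alternative added after seeing the data), and 46 to 120 with 1 animal left out. Members past it were 0, except 1 in 3 of the fits with 1 animal left out (0 to 1): C1qa without Abi3_WT replicate 1 or Abi3_KO replicate 3 and C4b without Abi3_KO replicate 1. Independent filtering gave C4b no adjusted p, so that it could not be called, without Abi3_WT replicate 1 or 2, without Abi3_KO replicate 5, without the choroid-high libraries and with the replicate block, and gave none to any member without Abi3_WT replicate 2. With filtering off (added after seeing the data), leaving out 1 animal gave 0 to 1 members: C1qa without Abi3_WT replicate 1 and C4b without Abi3_WT replicate 2. Other pathway genes past it were 0 in every fit. Of the 10 genes most like C1q, 1 to 8 remained with 1 animal left out. With the outside reads as a covariate, C3 turned to -2.15, C5ar2 to -1.54, Itgb2 to 0.75 and Itgax to 0.60 (log2 fold change), and with the microglia markers C3 turned to -0.0080. Without the choroid-high libraries Itgb2 was 0.013 and Itgax 0.045. With 1 animal left out C3 ranged from -0.19 to 0.84 and C5ar2 from -0.42 to 2.49, and the C1qb to C1qc log2 ratio from -0.059 to 0.15. The cause of these changes was not tested. Same-numbered animals of the 2 genotypes had deviations correlated at r = -0.0198 to 0.123 over 5 pairs. The mean was 0.0399, against -0.00798 for other pairs. With 5 pairs, and no litters or batches in the labels, this cannot settle whether the numbers pair the animals. With the replicate block, C1qa had a DESeq2 adjusted p of 0.133 and C4b none. At these depths C3, C5ar1 and C5ar2 were too shallow to show a difference.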
